A study of Mus musculus with 3 samples.

Results

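The genes described here are 10 regulators of the G1 phase of the cell cycle, taken by symbol from the 27998 genes of a scRNA-Seq matrix of spinal cord microglia: the D-type cyclins Ccnd1, Ccnd2 and Ccnd3, the E-type cyclins Ccne1 and Ccne2, the kinases Cdk4 and Cdk6, the Cip/Kip inhibitors Cdkn1a and Cdkn1b, and the INK4 inhibitor Cdkn2c. All 10 symbols matched 1 row each, and each gene had UMIs (unique molecular identifiers, each counting 1 captured RNA molecule) in at least 2 of the 3 libraries. In the study, microglia of the lumbar spinal cord were sequenced from naive mice and from mice 24 h or 48 h after sciatic nerve transection, as 1 library per time point. All mice were young adult Cx3cr1-creER-yfp/+ heterozygotes on C57BL/6, so that the naive animals carried the same knock-in at the Cx3cr1 locus as the injured ones, and the cords of 3 animals were pooled per library. Cells were sorted as YFP (+), which marks cells that use the Cx3cr1 locus: microglia, and also monocytes and perivascular macrophages where present.

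The matrix joins the 3 libraries, and each cell barcode ends in 1, 2 or 3. Which suffix stands for which time point is given by none of the labels or methods, so the libraries are named library 1, 2 and 3, their time points unknown, and no value below belongs to a known time after nerve injury. With 1 library each, differences between libraries have no replicate check. Every interval given is a 95% interval for counting error alone, exact Poisson for a level in CPM (UMIs per 1000000 UMIs of the same cells), exact binomial for a share of cells, and exact conditional for a ratio of 2 levels. Intervals of levels and ratios treat UMIs as independent, so they are too narrow where the UMIs of a gene cluster in few cells. Where a library had 0 UMIs, 3 counts were taken as its floor, which is a convention and not the end of an interval. A gene is called higher or lower at a ratio of at least 1.5, where its mean CPM over both groups was at least 10.

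Progress from G1 into DNA replication depends on cyclins that bind and activate cyclin-dependent kinases. D-type cyclins pair with Cdk4 or Cdk6 and are induced by growth signals, E-type cyclins pair with Cdk2 and are transcribed by E2F factors once the retinoblastoma protein has been phosphorylated, INK4 inhibitors block Cdk4 and Cdk6, and Cip/Kip inhibitors bind cyclin-kinase complexes more broadly, Cdkn1a being a well-known p53 target. Adult microglia are long-lived, divide rarely at rest, and proliferate in the spinal cord after a peripheral nerve is cut.

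Library 1 held 609 cells with 1343055 UMIs, the median cell having 2218. Library 2 held 3591 cells with 24097543 UMIs (median 5952 per cell), and library 3 held 3322 cells with 19769170 UMIs (median 5742 per cell). To compare shares of cells at equal depth, each cell was thinned at random to 2000 UMIs, which kept 408, 3569 and 3284 cells and left out 201, 22 and 38 shallower ones. The libraries shared 5 (1 and 2), 3 (1 and 3) and 19 (2 and 3) barcode sequences. The 8 microglia markers summed to between 12750 and 15539 CPM in the libraries with none at 0, led by Tmem119, P2ry12 and Olfml3, while 7 monocyte markers summed to at most 8.93 CPM and 7 perivascular macrophage markers to at most 2.28 CPM. The lists of the other cell types reached at most 14.4 CPM for 6 lymphocyte, 4.55 CPM for 4 neutrophil, 1.49 CPM for 4 neuron, 35.0 CPM for 4 endothelial, 78.9 CPM for 5 oligodendrocyte and 167 CPM for 5 astrocyte markers. Immediate early genes (21 genes, most of them from the study's own list made on these samples) averaged 7.58, 8.34 and 65.0 UMIs per thinned cell in libraries 1, 2 and 3, so library 3 stood apart, as it did for Fos at 3932 CPM against 23.8 and 178.

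Cells were also set apart by division, from lists that hold none of the 10 genes. A thinned cell was put in the mitotic class with at least 5 UMIs of 33 mitosis genes (Top2a, Birc5 and Cks2 were the most abundant), in the replicating class with at least 5 UMIs of 26 replication genes (led by Tyms, Mcm3 and Pcna) and fewer of the mitosis genes, and in the other class with at most 1 UMI of both lists together. In library 2 this gave 465 mitotic, 219 replicating and 463 other cells, and 2422 cells lay between the classes. Library 3 had 3 mitotic, 18 replicating and 2532 other cells, and library 1 had 1 mitotic, 0 replicating and 359 other cells, so dividing and other cells were compared in library 2 only. These classes are ranges of a count and not cell types: in library 2, 432 cells lay 1 UMI below the class limit and 248 lay on it. The mitotic class sets no upper limit on replication genes. In library 2 the replication list summed to 1708 CPM in mitotic, 3053 in replicating and 162 in other cells.

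The 10 genes fell into 3 patterns over the libraries. Ccne1, Ccne2 and Cdkn2c were higher in library 2 than in libraries 1 and 3, Ccne1 and Ccne2 many times over. Cdkn2c in library 2 was 3.71-fold higher (2.16 to 7.0) than in library 1. Cdk4 and Cdkn1a were higher in libraries 2 and 3 than in library 1. Over all cells Ccnd1, Ccnd3, Cdk6 and Cdkn1b differed by less than 1.5-fold between any 2 libraries, and Ccnd2 was too low to call.

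**Figure D1:**
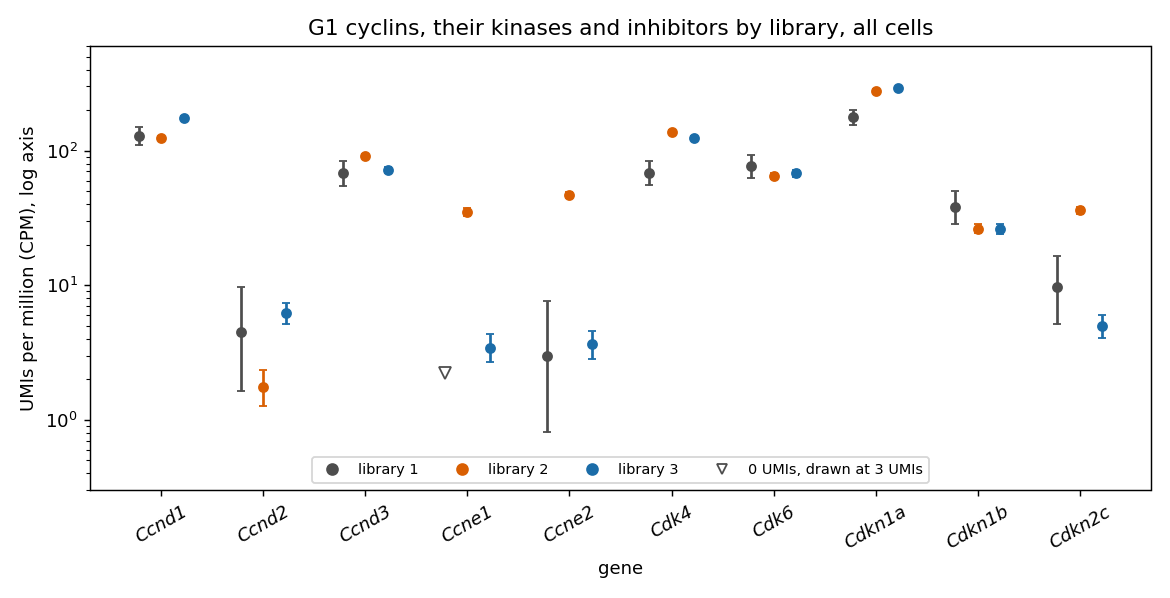
Level of each gene in each library over all cells, in CPM on a log axis, with bars for the exact Poisson interval of each point; the open triangle marks Ccne1 in library 1, where it had 0 UMIs, at the level of 3 UMIs. Ccne1, Ccne2 and Cdkn2c stand far higher in library 2 (35.1, 46.8 and 35.9 CPM) than in library 3, while the points of Ccnd3 and Cdk6 lie close together.

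Ccne1 and Cdkn2c share that pattern although 1 promotes and the other opposes entry into S phase, so the stretches before their start sites are shown, with Cdkn1a, which differed little between libraries 2 and 3, for contrast. They are RefSeq sequences (GRCm38.p6), read 5′ to 3′ on the gene's strand before a RefSeq start site and limited to bases outside every annotated exon of the gene, with each GC box (GGGCGG on either strand, a site that Sp factors can bind) in capitals. The Ccne1 stretch spans chr7:38107535-38107740 (minus strand), that of Cdkn2c chr4:109665373-109665609 (minus strand, the second of 2 start sites) and that of Cdkn1a chr17:29093519-29093768 (plus strand, the second of 2 start sites). The Cdkn2c and Cdkn1a stretches lie inside the span of their genes, since they precede the second start site.
Ccne1: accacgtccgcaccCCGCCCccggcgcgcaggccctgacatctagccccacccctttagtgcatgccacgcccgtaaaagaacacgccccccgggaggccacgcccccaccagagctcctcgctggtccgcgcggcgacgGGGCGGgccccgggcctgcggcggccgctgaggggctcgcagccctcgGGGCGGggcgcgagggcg
Cdkn2c: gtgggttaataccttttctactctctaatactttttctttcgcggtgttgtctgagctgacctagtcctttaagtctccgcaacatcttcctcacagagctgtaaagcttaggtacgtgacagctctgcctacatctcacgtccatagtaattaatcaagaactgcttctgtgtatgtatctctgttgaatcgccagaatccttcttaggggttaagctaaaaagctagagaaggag
Cdkn1a: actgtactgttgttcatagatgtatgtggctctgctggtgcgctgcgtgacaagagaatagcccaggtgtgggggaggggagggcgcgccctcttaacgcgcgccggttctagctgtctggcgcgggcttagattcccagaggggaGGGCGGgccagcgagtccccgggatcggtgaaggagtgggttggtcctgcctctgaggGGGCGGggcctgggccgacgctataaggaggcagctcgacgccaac
The Ccne1 stretch holds 3 GC boxes, the Cdkn1a stretch 2 and the Cdkn2c stretch 0, while the window of the other Cdkn2c start site holds 3 and that of the other Cdkn1a start site 0. The 3 stretches have 206, 250 and 237 bases in that order. The full window of 250 bases before the Ccne1 start site holds 4 GC boxes, 1 of which runs past the end of the stretch. Of the 7 genes with a promoter in the table (Ccnd3, Ccne1, Cdk4, Cdk6, Cdkn1a, Cdkn1b and Cdkn2c, 10 start sites), 7 of the 10 windows of 250 bases before a start site hold a GC box, against 32.7% of all 32851 promoters. None of the 10 windows holds any of 4 strict E2F spellings on either strand (TTTCCCGC, TTTCGCGC, TTTGCCGC, TTTGGCGC), which 1.86% of all promoters hold. A match or its absence describes these letters only.

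The E-type cyclins drive the kinase Cdk2 at the onset of DNA replication. Ccne1 (ENSMUSG00000002068, chr7:38097984-38107534, minus strand; gene positions are from GENCODE M21 on GRCm38) had 0, 846 and 68 UMIs in libraries 1, 2 and 3. That is 0 CPM in library 1, where 3 UMIs would be 2.23 CPM, 35.1 CPM (32.8 to 37.6) in library 2 and 3.44 CPM (2.67 to 4.36) in library 3. Against that floor library 2 was at least 15.7-fold higher than library 1, whose Poisson interval for 0 UMIs ends at 2.75 CPM, and library 3 stood at 0.0980 of library 2 (0.0754 to 0.126). At equal depth, 205 of 3569 cells of library 2 (5.74%, 5.0 to 6.56) and 19 of 3284 cells of library 3 (0.579%, 0.349 to 0.902) had a Ccne1 UMI, and 0 of 408 cells of library 1 did, where the floor of 3 cells is a share of 0.735% and the exact binomial interval ends at 0.900%. Over all UMIs the shares in libraries 2 and 3 were 18.5% and 1.87%.

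Ccne2 (ENSMUSG00000028212, chr4:11191351-11204779, plus strand) followed the same order, with 4, 1128 and 72 UMIs or 2.98 (0.811 to 7.63), 46.8 (44.1 to 49.6) and 3.64 CPM (2.85 to 4.59). All 4 UMIs of library 1 came from 1 cell, so its interval and that of the ratio over it are too narrow. The ratio of library 2 over library 1 was 15.7 (6.12 to 57.8), and library 3 stood at 0.0778 of library 2 (0.0604 to 0.0988). At equal depth a Ccne2 UMI was found in 0.245% (0.00621 to 1.36), 6.95% (6.14 to 7.83) and 0.548% (0.325 to 0.865) of the cells. Per cell, Ccne2 UMIs were more clustered than those of Ccne1 in library 2: the variance of UMIs per thinned cell was 1.22 times the mean for Ccne2 and 1.06 times for Ccne1, and 36 against 11 cells had at least 2 UMIs.

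Of 3569 thinned cells of library 2, 30 (0.841%, 0.568 to 1.20) had UMIs of both E-type cyclins, and 393 (11.01%) had UMIs of 1 of them. Their balance in library 2 was 42.9% Ccne1 and 57.1% Ccne2 of 1974 UMIs. Counts from the 3′ end give 1 UMI per captured molecule whatever the transcript's length, so these shares compare molecules.

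Cdkn2c (ENSMUSG00000028551, chr4:109660876-109667189, minus strand) encodes p18, an inhibitor of Cdk4 and Cdk6, and had 13, 866 and 98 UMIs. Its levels were 9.68 (5.15 to 16.6), 35.9 (33.6 to 38.4) and 4.96 CPM (4.02 to 6.04). Library 2 was 3.71-fold higher than library 1 (2.16 to 7.0), and library 3 stood at 0.138 of library 2 (0.111 to 0.170). At equal depth 1.96% (0.850 to 3.83), 5.97% (5.21 to 6.80) and 0.822% (0.542 to 1.19) of the cells had a UMI, so the inhibitor was found in library 2 about as often as either E-type cyclin.

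Ccne1, Ccne2 and Cdkn2c were the 3 of 9 tested genes called lower in library 3 than in library 2, against 5.81% of all 7954 genes tested, and none was called higher (3.72% of all genes). These 3 genes passed the CPM minimum only through library 2, with 3.44, 3.64 and 4.96 CPM in library 3. Ccnd2, at a higher level in library 3, was under the minimum and not tested. Both counts are therefore partly set by that filter. In library 2 over library 1, Ccne1, Ccne2, Cdkn2c, Cdk4 and Cdkn1a, 5 of 9 tested, were called higher, against 12.7% of all 8202 genes tested, and none lower (17.9%). Here too Ccne1, Ccne2 and Cdkn2c passed the minimum only through library 2, with 0, 2.98 and 9.68 CPM in library 1. In library 3 over library 1, Cdk4 and Cdkn1a, 2 of 6 tested, were called higher (11.1% of all 8089 genes), and none lower (19.9%). The median of all genes tested moved by less than the calls, with log2 ratios of -0.10 for both comparisons with library 1 and -0.02 for library 3 over library 2.

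Cdk4 (ENSMUSG00000006728, chr10:127063534-127067920, plus strand), the kinase partner of D-type cyclins, had 92, 3303 and 2457 UMIs. Its levels were 68.5 (55.2 to 84.0), 137 (132 to 142) and 124 CPM (119 to 129), a ratio of 2.0 (1.63 to 2.49) for library 2 over library 1 and of 1.81 (1.47 to 2.26) for library 3 over library 1. Libraries 2 and 3 were close, at a ratio of 0.907 (0.860 to 0.956) for library 3 over library 2. At equal depth 13.7%, 22.3% and 20.9% of the cells had a Cdk4 UMI. The 3′ end of Cdk4 overlaps Tspan31 on the opposite strand, which had 7703 UMIs in all, and Ccnd1, Ccnd3 and Ccne2 overlap LTO1 (917 UMIs), Bysl (1082 UMIs) and Ints8 (510 UMIs) in the same way. Whether strand was used in counting is not given in the sources used here, and without it the UMIs of such a pair cannot be told apart. Cdk6 (ENSMUSG00000040274, chr5:3341485-3531008, plus strand), the other kinase of D-type cyclins, had levels of 76.7 (62.6 to 93.0), 65.3 (62.1 to 68.6) and 67.7 CPM (64.1 to 71.4), and all ratios between libraries lay between 0.851 and 1.04. Cdk4 was therefore 47.2% of the UMIs of both kinases in library 1 and 67.7% and 64.7% in libraries 2 and 3.

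Cdkn1a (ENSMUSG00000023067, chr17:29090976-29100727, plus strand) encodes p21 and had the most UMIs of the 10 genes, 239, 6712 and 5773. Its levels were 178 (156 to 202), 279 (272 to 285) and 292 CPM (285 to 300), which made library 2 1.57-fold (1.38 to 1.79) and library 3 1.64-fold (1.44 to 1.88) higher than library 1. The call over library 1 depends on the cells used: for library 2 the ratio was 1.47 with a stricter cell filter, 1.49 without the deepest cells of each library and 1.35 in thinned cells, and for library 3 it was 1.47 in thinned cells. Libraries 2 and 3 differed by a ratio of 1.05 (1.01 to 1.09). At equal depth 22.3% (18.4 to 26.7), 38.6% (37.0 to 40.3) and 38.0% (36.3 to 39.7) of the cells had a UMI.

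The spread of Cdkn1a over cells differed more than its mean. The variance of its UMIs per thinned cell was 2.46 times the mean in library 1, 1.30 in library 2 and 1.71 in library 3, while for the other 9 genes that ratio lay between 0.957 and 1.22 wherever they had UMIs. In library 1, 17 of 408 thinned cells (4.17%, 2.45 to 6.59) had at least 3 UMIs and held 43.3% of all Cdkn1a UMIs, against 21.4% of the UMIs in 3.33% of cells (2.77 to 3.98) in library 2 and 30.4% in 4.57% of cells (3.88 to 5.34) in library 3. The share of cells with at least 5 UMIs was 1.23% (0.399 to 2.84), 0.364% (0.194 to 0.622) and 1.07% (0.743 to 1.48). Before thinning, the highest cell had 9, 28 and 35 Cdkn1a UMIs. Libraries 2 and 3 thus had nearly the same share of cells with any Cdkn1a, and library 3 had the larger share of cells with 5 or more.

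**Figure D2:**
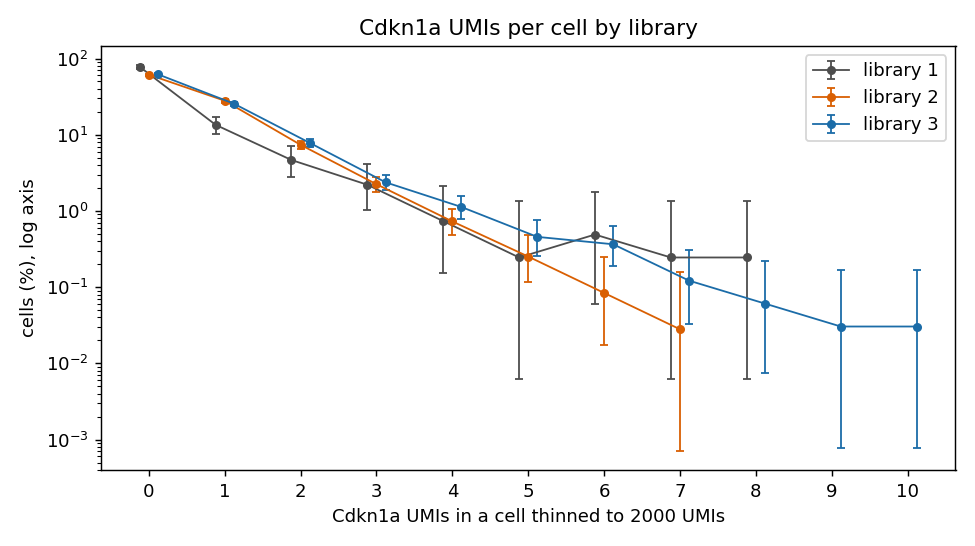
Share of cells, in percent on a log axis, by the number of Cdkn1a UMIs in a cell thinned to 2000 UMIs, for libraries 1 (408 cells), 2 (3569 cells) and 3 (3284 cells), with bars for the exact binomial interval; numbers of UMIs found in no cell are not drawn. Library 1 has the largest share of cells at 0 UMIs (77.7%), and libraries 2 and 3 run together up to 3 UMIs, above which library 3 lies higher.

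Cdkn1b (ENSMUSG00000003031, chr6:134920401-134925513, plus strand) encodes p27, the inhibitor that is high in resting cells of many tissues, and had 51, 635 and 520 UMIs. Its levels ran opposite to those of Cdkn1a between library 1 and the others: 38.0 (28.3 to 49.9), 26.4 (24.3 to 28.5) and 26.3 CPM (24.1 to 28.7). The ratio over library 1 was 0.694 (0.521 to 0.942) for library 2 and 0.693 (0.519 to 0.943) for library 3, below the size for a call. With the stricter cell filter the ratios were 0.612 and 0.608 and in thinned cells 0.636 and 0.598, all called lower.

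The D-type cyclins link growth signals to the cycle. Ccnd1 (ENSMUSG00000070348, chr7:144929931-144939925, minus strand) had levels of 129 (110 to 150), 125 (120 to 129) and 174 CPM (168 to 180) and was highest in library 3, with 1.39 times the level of library 2 (1.33 to 1.47) and 1.35 times that of library 1 (1.16 to 1.58). Ccnd3 (ENSMUSG00000034165, chr17:47505051-47599691, plus strand) was instead highest in library 2, at 67.8 (54.6 to 83.2), 91.3 (87.6 to 95.2) and 71.7 CPM (68.0 to 75.5), so that library 3 stood at 0.785 of library 2 (0.734 to 0.839). Ccnd2 (ENSMUSG00000000184, chr6:127125162-127152193, minus strand) had 6, 42 and 122 UMIs in all, 4.47 (1.64 to 9.72), 1.74 (1.26 to 2.36) and 6.17 CPM (5.12 to 7.37), with a ratio of 3.54 (2.47 to 5.16) for library 3 over library 2 at levels under the minimum for a call.

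The D-type cyclins summed to 201, 218 and 252 CPM in libraries 1, 2 and 3. Of their UMIs Ccnd1 made up 64.1% (58.0 to 69.8), 57.2% (55.9 to 58.6) and 69.1% (67.8 to 70.3), and Ccnd3 33.7%, 42.0% and 28.5%. At 2000 UMIs per cell, 33.5% of the cells of library 3 had UMIs of exactly 1 of these genes, 3.90% of exactly 2, and 62.5% of none.

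In library 2, Ccne2 was higher in dividing than in other cells. It had 11 UMIs in the 463 other cells, 51 in the 219 replicating and 107 in the 465 mitotic cells, or 11.9 (5.93 to 21.3), 116 (86.7 to 153) and 115 CPM (94.3 to 139). The ratio was 9.80 (5.04 to 20.9) for replicating and 9.69 (5.20 to 19.98) for mitotic over other cells, and 0.988 (0.702 to 1.41) between mitotic and replicating cells. The size of these ratios varied with the thinning: a second random thinning gave 4.94 (2.74 to 9.27) and 5.64 (3.36 to 10.1), and all UMIs of the same cells gave 8.52 (6.05 to 12.3) and 7.54 (5.45 to 10.7). A Ccne2 UMI was found in 2.38% of the other, 19.6% of the replicating and 17.2% of the mitotic cells. Together the dividing classes gave 55.1% of the Ccne2 UMIs from 19.2% of the cells. Mitotic cells could also be rich in replication-list UMIs, so their ratio over replicating cells does not compare mitosis with S phase.

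Ccne1 had 24, 19 and 54 UMIs in other, replicating and mitotic cells, or 25.9 (16.6 to 38.6), 43.4 (26.1 to 67.7) and 58.1 CPM (43.6 to 75.8). The ratio of 2.24 (1.36 to 3.79) for mitotic over other cells lay above 1 with its interval, while that of 1.67 (0.867 to 3.19) for replicating over other cells did not. With all UMIs of the same cells in place of the thinned ones the ratios were 2.59 (1.97 to 3.43) and 2.45 (1.78 to 3.38). A second random thinning gave 5.20 and 6.33, the latter above the 4.94 of Ccne2, so the order of the E-type cyclins in replicating cells turns with the thinning. The level of 25.9 CPM in other cells of library 2 is itself 10.9 times (5.26 to 24.0) that in other cells of library 3.

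Cdkn2c also stood higher in dividing cells, with 23, 21 and 68 UMIs or 24.8 (15.7 to 37.3), 47.9 (29.7 to 73.3) and 73.1 CPM (56.8 to 92.7). The ratios were 1.93 (1.02 to 3.65) for replicating and 2.94 (1.81 to 4.95) for mitotic over other cells, and 1.53 (0.923 to 2.62) for mitotic over replicating cells. Under alternative settings the replicating ratio ran from 1.04 to 1.91 and stayed at least 1.5-fold in 3 of 7. The mitotic ratio ran from 1.24, with Seurat phases, to 4.13 and stayed at least 1.5-fold in 7 of 8. Cdk4 followed with 103 (83.0 to 125), 164 (129 to 207) and 180 CPM (153 to 209), ratios of 1.60 (1.16 to 2.20) and 1.75 (1.35 to 2.28).

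The remaining genes differed by less than 1.5-fold or rest on few UMIs. Ccnd1 had 123 CPM in other, 112 in replicating and 115 in mitotic cells, with ratios of 0.909 (0.636 to 1.28) and 0.935 (0.711 to 1.23). Ccnd3 had 91.8, 100.5 and 115 CPM (1.09, 0.743 to 1.59, and 1.25, 0.934 to 1.69), and Cdk6 had 62.6, 77.6 and 78.5 CPM (1.24, 0.787 to 1.92, and 1.25, 0.876 to 1.80). Differences of that size were not detectable in these thinned cells. With all UMIs of the same cells, Ccnd1 stood at 0.754 in mitotic over other cells (0.655 to 0.868) and at 0.895 in replicating over other cells (0.751 to 1.06). Cdkn1a had 305 (270 to 342), 221 (180 to 270) and 301 CPM (267 to 338): replicating cells stood at 0.727 of other cells (0.571 to 0.919) and mitotic cells at 0.989 (0.835 to 1.17), while mitotic over replicating cells gave 1.36 (1.08 to 1.73). Cdkn1a thus differed between mitotic and other cells by less than counting error, and with all UMIs its ratios were 0.770 (0.682 to 0.868) in replicating and 0.984 (0.902 to 1.08) in mitotic cells. At 1000 UMIs with a class limit of 3 UMIs the ratio in replicating cells was 1.07 (0.833 to 1.37), on the other side of 1. Cdkn1b had 30, 9 and 27 UMIs or 32.4, 20.5 and 29.0 CPM, and its ratio of 0.634 (0.265 to 1.37) in replicating cells rests on 9 UMIs; a second random thinning gave 0.890 (0.378 to 1.94), and all UMIs of the cells gave 0.631 (0.402 to 0.966).

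Of 9 tested genes, 4 were called higher in replicating than in other cells (Ccne1, Ccne2, Cdk4 and Cdkn2c), against 14.2% of all 7951 genes tested, and 1 lower (Cdkn1b, 9.81%). The same 4 genes were called higher in mitotic cells, against 13% of all 8040 genes tested, and none lower (7.15%). Both comparisons share the other cells. The calls depend on the class rule: with a limit of 3 UMIs 1 gene, Ccne2, was called higher in replicating cells and Ccne1, Ccne2 and Cdkn2c in mitotic cells, and with the phases of Seurat, scored without Ccne2, the calls were Ccne1 and Ccne2 in S and Ccne2 in G2/M cells over G1 cells. The shares of all genes given above belong to the main class rule and cannot be set beside these alternative calls. Dividing cells were deeper before thinning, with a median of 7629 UMIs in replicating and 8878 in mitotic against 5690 in other cells, and thinning sets all cells to 1 depth without changing what their total RNA was. A mix of 2 cells in 1 droplet also has more UMIs, and doublets were not called here. With all UMIs of the same cells, Cdk4 had ratios of 1.48 (1.26 to 1.75) in replicating and 1.504 (1.31 to 1.73) in mitotic cells, the former under 1.5, and a second thinning gave 1.46 in mitotic cells, no longer called. The 6 lymphocyte markers summed to 9.72, 11.4 and 40.9 CPM in other, replicating and mitotic cells, and in mitotic cells 27 UMIs of Gzma, a granzyme of lymphocytes, came from 7 of 465 cells. Their part in these levels was not tested. Depth moved with the same genes over all cells of library 2: the 1189 deepest cells (median 9063 UMIs before thinning) had 44.6 CPM of Ccne1, 74.4 of Ccne2 and 46.3 of Cdkn2c, against 18.9, 20.2 and 25.2 CPM in the 1189 shallowest (median 4440), while Cdkn1a had 279 and 278 CPM.

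**Figure D3:**
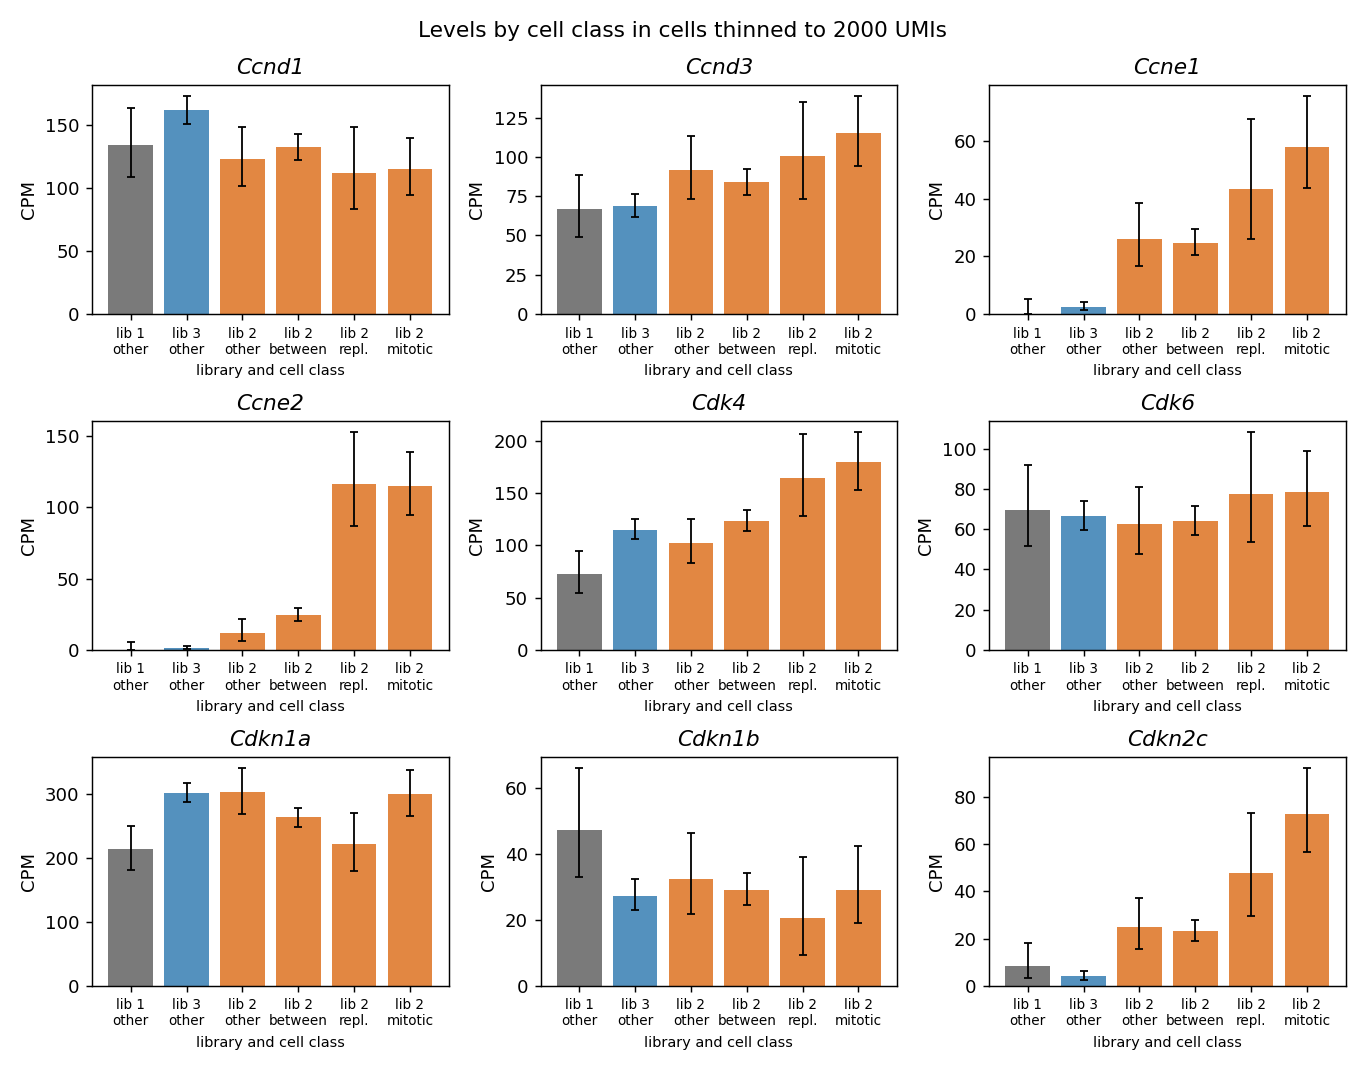
Level of 9 of the genes (Ccnd2 is left out for its low counts) in cells thinned to 2000 UMIs, in CPM, by library and class of cells; bars start at 0 and error bars are exact Poisson intervals. Ccne2, Ccne1, Cdkn2c and Cdk4 stand highest in replicating (repl.) or mitotic cells of library 2, whereas Ccnd1 and Cdk6 have overlapping intervals over its classes.

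Over the 8 steps of division-list UMIs in library 2, Ccne2 stayed between 11.7 and 14.2 CPM in cells with 0 to 3 UMIs, reached 25.0 CPM (16.6 to 36.2) at 4 UMIs and 40.3 (29.9 to 53.1) at 5 to 6, and ended at 158 CPM (129 to 191) in the 332 cells with 10 or more. Up to 4 UMIs Ccne1 lay between 18.8 and 27.7 CPM and Cdkn2c between 18.8 and 41.7 CPM, the 41.7 CPM being that of cells with 0 UMIs. With 10 or more UMIs Ccne1 and Cdkn2c ended at 67.8 (49.4 to 90.7) and 94.9 CPM (72.9 to 121). Cdk4 went from 108 CPM (70.8 to 159) at 0 UMIs through 132 (113 to 154) at 5 to 6 to 200.3 (168 to 237). Ccnd1 was at 139 CPM (114 to 168) with 7 to 9 UMIs and at 97.9 (75.6 to 125) with 10 or more, the lowest of its steps.

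**Figure D4:**
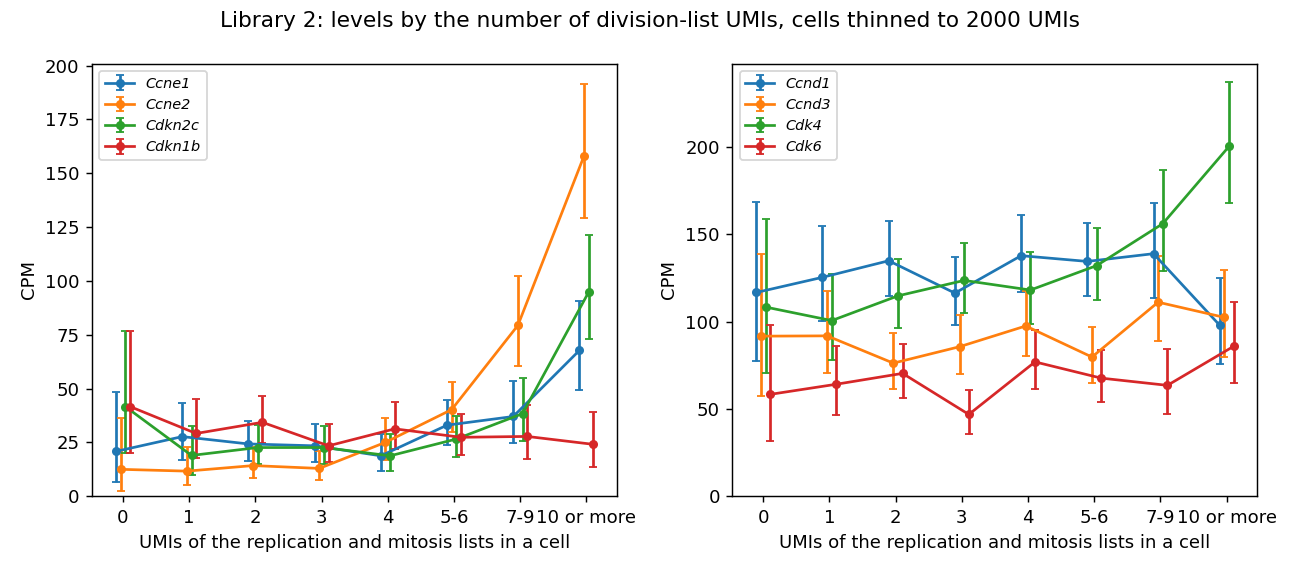
Level in CPM, in cells of library 2 thinned to 2000 UMIs, by the number of UMIs of the replication and mitosis lists in the cell (0 to 10 or more, from 120 to 621 cells a step); error bars are exact Poisson intervals. Ccne2 ends at 158 CPM and Cdk4 at 200.3 CPM in the cells with most such UMIs, and Cdkn1b, Ccnd3 and Cdk6 show no step of that size.

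The higher level of Ccne1 and Cdkn2c in library 2 was also present in cells outside the dividing classes. Other cells of library 2 had 25.9 CPM of Ccne1 (24 UMIs) against 2.37 CPM (12 UMIs) in the 2532 other cells of library 3 and 0 UMIs in the 359 other cells of library 1. For Cdkn2c they had 24.8 CPM against 4.15 and 8.36 CPM, a ratio of 5.99 (3.17 to 11.4) over library 3. Ccne2 had 11.9 against 1.38 CPM, a ratio of 8.59 (3.04 to 26.1) at a mean under the minimum for a call. So 2 of 8 tested genes were called higher, against 7.79% of all 7841 genes tested, and none lower (8.37%). Both called genes, Ccne1 and Cdkn2c, passed the CPM minimum only through library 2, so this count is partly set by that filter. Beside this, other cells of library 2 were not free of division transcripts: their mitosis-list UMIs summed to 208 CPM against 38.9 in other cells of library 3, and the replication list to 162 against 185 CPM. Cells left with no UMI of either list after thinning were also compared, 120 in library 2 and 1398 in library 3. They can hold list UMIs among those that thinning left out, since their medians before thinning were 5753.5 and 5621 UMIs. Their ratios were 11.7 (2.68 to 50.6) for Ccne1, on 5 UMIs in each library, and 7.77 (3.12 to 18.5) for Cdkn2c, on 10 and 15 UMIs. RNA free in the droplets was not measured, since no cell type that should lack these genes stood apart in the matrix, and its part in these levels was not tested.

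**Figure D5:**
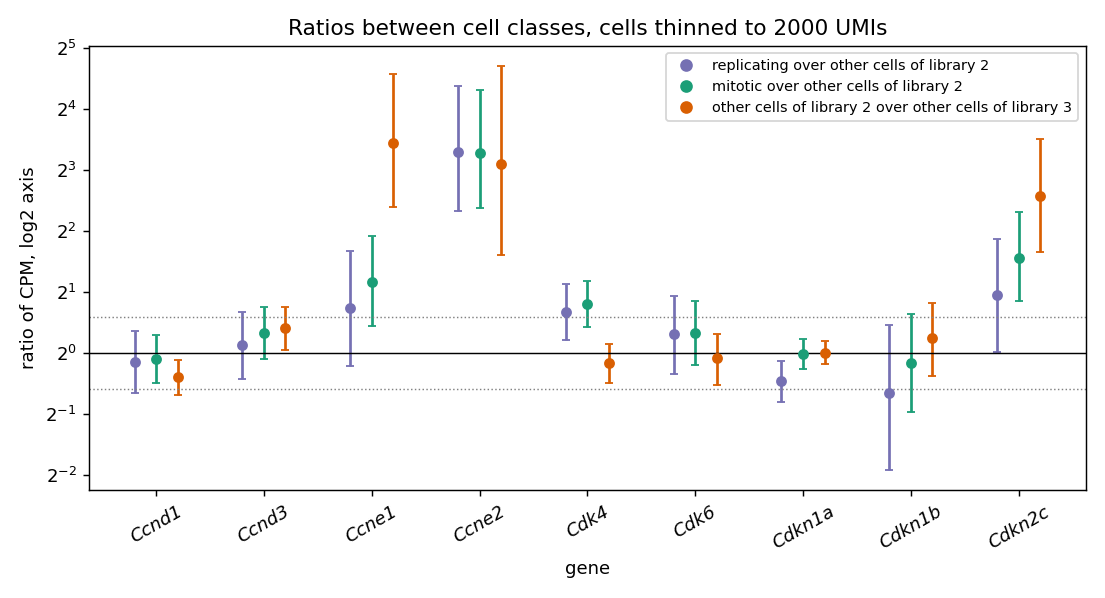
Ratio of levels on a log2 axis, with exact conditional intervals, for replicating over other and mitotic over other cells of library 2, and for other cells of library 2 over other cells of library 3, in cells thinned to 2000 UMIs; dotted lines mark 1.5-fold in each direction. Ccne1 differs more between the other cells of the libraries (10.9) than between mitotic and other cells of library 2 (2.24) in this thinning. A second thinning gave 7.20 (2.71 to 19.7) and 5.20 (2.71 to 10.9) for Ccne1, with overlapping intervals. Ccne2 differs by over 8-fold in all 3 comparisons in this thinning (4.94 and 5.64 between classes in the second one). Cdk4 differs between classes (1.60 and 1.75) and little between libraries (0.891).

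Among the other cells, Cdkn1a stood at 214 (182 to 251), 305 (270 to 342) and 303 CPM (288 to 318) in libraries 1, 2 and 3, with ratios over library 1 of 1.42 (1.16 to 1.74) and 1.41 (1.20 to 1.68), both under the size for a call. Cdk4 stood at 72.4 (54.1 to 94.97), 103 (83.0 to 125) and 115 CPM (106 to 125), and Cdkn1b at 47.4 (32.8 to 66.2), 32.4 (21.9 to 46.2) and 27.3 CPM (22.9 to 32.2). In library 2 over library 1 neither was called, Cdk4 standing at 1.42 (1.0 to 2.03). In library 3 over library 1, 1 of 6 tested genes was called higher, Cdk4 at 1.59 (1.20 to 2.15), against 11.7% of all 8022 genes tested, and 1 lower, Cdkn1b at 0.575 (0.393 to 0.864), against 21.1%. The few dividing cells outside library 2 were counted only: the 18 replicating cells of library 3 held 3 Ccne1, 1 Ccne2, 8 Cdk4 and 8 Ccnd1 UMIs, its 3 mitotic cells held 2 Ccne2 UMIs, and the 1 mitotic cell of library 1 held 1 Ccne2 and 1 Cdkn2c UMI.

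Library 3, with the high immediate early genes, allowed a look at the genes within 1 library. In its 1094 cells with most early-gene UMIs (92.3 on average) Cdkn1a had 324 CPM (301 to 349), against 239 (219 to 260) in the 1094 cells with fewest (39.2 on average), a ratio of 1.36 (1.21 to 1.52). Cdkn1b went the same way, at 32.9 against 21.5 CPM (1.53, 1.05 to 2.26), and Cdk6 the opposite way, at 51.2 against 73.6 CPM (0.696, 0.542 to 0.891). Ccnd1, an early growth-signal target in many cell types, differed by less than counting error, at 161 and 163 CPM (0.989, 0.851 to 1.15). In library 2 the 1189 cells with most and the 1189 with fewest had 12.5 and 4.65 early-gene UMIs on average, and 277 and 256 CPM of Cdkn1a (1.08, 0.968 to 1.21). Cdkn2c had 24.8 CPM in the former and 39.9 in the latter (0.621, 0.441 to 0.868), and without dividing cells the ratio was 0.840. Early-gene UMIs take up part of the fixed 2000 UMIs, which lowers the level of any other gene a little in cells that have many.

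The wider pathway was described with 33 genes of the retinoblastoma protein, E2F factors and G1 kinases. In library 3 over library 2, 11 of 25 tested were lower (5.81% of all genes) and 0 higher (3.72%), with a median log2 ratio of -0.13 against -0.02 for all genes. Among them were Cks1b, a kinase subunit that helps degrade p27, at 18.8 against 88.7 CPM (0.212, 0.189 to 0.236), E2f1, the factor that transcribes S phase genes, at 14.3 against 51.3 CPM (0.278, 0.244 to 0.317), Cdkn2d, the INK4 inhibitor p19, at 16.4 against 52.8 CPM (0.310, 0.274 to 0.351), E2f2 at 5.06 against 17.3 CPM (0.292, 0.232 to 0.364), and Skp2, which marks p27 for degradation, at 15.3 against 37.8 CPM (0.404, 0.354 to 0.461). In library 2 over library 1, 8 of 26 tested were higher (12.7% of all genes) and 2 lower (17.9%), E2f1 with 51.3 against 2.23 CPM and Cdkn1c, the Cip/Kip inhibitor p57, with 7.59 against 18.6 CPM. E2f1 had 3 UMIs in library 1, no more than the floor, so its ratio of 22.9 (7.83 to 111) is uncertain in size. Some called genes passed the CPM minimum only through the library where they were high. Examples are E2f2 in library 3 over library 2 and E2f1 in library 2 over library 1. The counts of called pathway genes are therefore partly set by that filter. In library 3 over library 1, 2 of 25 were higher (11.1% of all genes) and 2 lower (19.9%), shares no larger than those of all genes. The median log2 ratios of the list were 0.14 and -0.15, against -0.10 for all genes in both comparisons.

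Cdkn2d was, like Cdkn2c, highest in library 2: it had 15.6, 52.8 and 16.4 CPM in the 3 libraries, beside 9.68, 35.9 and 4.96 CPM for Cdkn2c. In library 2, 11 of 30 tested pathway genes were higher (13% of all genes) and 1 lower (7.15%) in mitotic than in other cells. They included Cdkn2a (28.0 against 5.40 CPM), which encodes p16 and p19Arf, E2f8, an E2F repressor (54.8 against 16.2 CPM), and Cdkn2d (101 against 32.4 CPM). The Cdkn2a ratio of 5.18 (1.96 to 17.3) rests on 26 against 5 UMIs. In replicating cells 10 of 29 were higher (14.2% of all genes) and 2 lower (9.81%), with E2f7, another E2F repressor, at 25.1 against 5.40 CPM and E2f1 at 98.2 against 44.3 CPM. The E2f7 ratio of 4.65 (1.49 to 17.1) rests on 11 against 5 UMIs. Among the 5 largest folds called higher in replicating cells, those of Cdc25a, Tfdp2 and Rbl1 had intervals that include 1. Both genes called lower, Ambra1 and Rbl2, had 3 UMIs each in replicating cells, and their intervals include 1. E2f1 was lower in mitotic than in replicating cells, at a ratio of 0.657 (0.437 to 0.996), whereas Cdkn2d was 2.60-fold higher (1.54 to 4.66). Between other cells of libraries 2 and 3, 9 of 24 were higher in library 2 (7.79% of all genes) and 0 lower (8.37%). Here too some called genes passed the CPM minimum only through the group where they were high. Examples are Cdkn2a in mitotic and E2f7 in replicating cells. In other cells of library 2 over library 3 they include Rbl2 (18.4 against 8.29 CPM) and Tfdp2 (14.0 against 6.91 CPM). The median log2 ratios of the list in these 3 comparisons were 0.30, 0.36 and 0.29, against 0.03, 0.03 and 0.02 for all genes.

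Cdkn1a is a p53 target, and 18 other p53 targets were read beside it. Of 9 tested, 2 were higher (12.7% of all genes) and 1 lower (17.9%) in library 2 than in library 1, and 3 were higher (11.1%) and 1 lower (19.9%) in library 3 than in library 1. Each count rests on 1 to 3 of only 9 tested genes. That is too few to tell the shares of targets called apart from those of all genes. Sesn2, called higher in library 3 over library 1, had a ratio of 1.62 (0.998 to 2.81). The median log2 ratios of the tested targets were 0.05 and 0.44, against -0.10 for all genes. Aen, a nuclease of apoptosis, had 25.3, 42.5 and 53.4 CPM. Sesn1, a stress-induced regulator of growth signals, had 141, 78.8 and 63.2 CPM, the opposite order. Plk3, a stress-response kinase, had 128.8 CPM in library 3 against 55.8 and 59.1. In mitotic cells of library 2, where Cdkn1a differed from other cells by less than counting error, 0 of 9 tested targets were higher (13% of all genes) and 3 lower (7.15%), among them Bbc3, which promotes apoptosis, at 30.1 against 58.3 CPM (0.516, 0.315 to 0.830). The others were Aen at 0.584 (0.349 to 0.960) and Sesn2 at 0.664 (0.267 to 1.58). The Sesn2 ratio rests on 10 against 15 UMIs, and its interval includes 1.

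The genes most like each member were taken as those with the smallest root mean square difference of centred log2 (CPM + 1) over 5 groups: other cells of the 3 libraries, and replicating and mitotic cells of library 2. For Ccne1 they were Cenpm (0.15), Cdca5 (0.28) and Ccnf (0.30), for Ccne2 Tk1 (0.25), Cdca8 (0.57) and Rad54l (0.59), and for Cdkn2c Smc4 (0.20), Cdkn2a (0.26) and Csrp1 (0.29), out of 8109 genes compared. Cenpm and Cdca8 belong to centromere and spindle complexes, and Tk1, which makes thymidine nucleotides, is itself on a list that set the classes. For Cdk4 the closest was Anp32e (0.02), for Cdkn1a Zcchc17 (0.04), for Cdkn1b Ccdc191 (0.03), for Ccnd1 Jmjd1c (0.02), for Ccnd3 Cox8a (0.03) and for Cdk6 M6pr (0.03). With 5 groups that share libraries these are descriptions of shape only.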

How the data were processed

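YFP (+) cells of the lumbar cord were sequenced as 1 scRNA-Seq library per time point with 10x 3′ chemistry from cells gated for size and singlets. The authors deposited raw UMI counts per gene and cell as 1 matrix; the submitters' processing notes name Cell Ranger 2.1.1 and mm10, and any down-sampling at the joining step is not given in the sources used here. All 10 members and all gene lists were chosen with earlier results of these data known, so no list gives independent support.

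All 7522 deposited cells were used with no further filter, and doublets were kept. CPM were sums of UMIs over cells divided by all UMIs of those cells; log2 ratios had 1 CPM added. Thinning to 2000 UMIs drew UMIs without replacement (seed 1). Intervals came from scipy 1.17.1 (Python 3.11.15, numpy 2.4.6). Seurat 5.3.0 in R 4.3.3 scored phases for 1 alternative, without Ccne2, which its S list holds. There were 0 unused columns of samples. The planned tests between time points were not run, since barcode suffixes could not be tied to them, and no p-value is given. Ratio and call functions were tested on simulated data. Named were the 10 members, at most 5 pathway genes per direction and comparison, the 3 most abundant genes of a list and the 3 genes most like a member; lists of p53 targets were named by the same rule, and Gzma was named after its values were seen. Alternatives changed the cell filter, scaling, thinning, class limits, fold and CPM minimum. Intervals and floors cover counting error only.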

Additional observations from a re-analysis of the deposited data

How the results depend on the processing

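No paired analysis was possible because each time point has 1 library and the libraries could not be tied to time points. Of 384 recomputed ratios, 36 fell on the other side of 1. For 34 of them the reported ratio was under 1.5-fold. The other 2 were Ccnd2 in replicating over other cells of library 2, where the reported ratio rests on 2 and 1 UMIs. It gave 0.879 (0.0112 to 69.0) with a class limit of 3 UMIs and 0.746 (0.139 to 4.01) with Seurat phases. The lower levels of Ccne1, Ccne2 and Cdkn2c in library 3 than in library 2 stayed past 1.5-fold under all 5 alternatives of cells, depth and scaling, at 0.0780 to 0.100, 0.0649 to 0.0793 and 0.131 to 0.148. Cdkn1a in library 2 over library 1 was under 1.5-fold in 3 of 5, with a lowest ratio of 1.35 in thinned cells.

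Counts of members called moved as follows. For library 2 over library 1, higher calls went from 5 to 4 with the stricter cell filter, without the deepest cells, in thinned cells, at 2-fold and with a CPM minimum of 20, and lower calls went from 0 to 1 with the stricter cell filter, thinned cells (Cdkn1b in both) or no CPM minimum. For library 3 over library 1, lower calls went from 0 to 1 with the stricter filter, thinned cells, a CPM minimum of 5 or none, and higher calls from 2 to 1 in thinned cells, 0 at 2-fold and 3 without a CPM minimum. For library 3 over library 2, higher calls went from 0 to 1 without a CPM minimum and lower calls from 3 to 2 with a minimum of 20. In replicating over other cells, higher calls went from 4 to 1 with a class limit of 3 UMIs or at 2-fold to 2 with Seurat phases and to 3 with all UMIs, with other cells of no list UMI and at 1000 UMIs with a limit of 3. Lower calls went from 1 to 0 with a limit of 3 UMIs (at 2000 or 1000 UMIs), Seurat phases, 2-fold and seed 2. In mitotic over other cells, higher calls went from 4 to 1 with Seurat phases and to 3 with a limit of 3 UMIs, at 2-fold and with seed 2, and lower calls from 0 to 1 with a limit of 10 UMIs, where replicating cells were too few (17) to compare. Seurat phases put 1044 cells of library 2 in S and 1746 in G2/M, and Ccne2 then had ratios of 4.0 and 2.28, so the class rule sets the size of these ratios. The alternative of other cells with no list UMI was chosen after seeing the data. Library 1, with 1343055 UMIs, limits every comparison it enters.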
